A study of Mus musculus with 2 samples.

Results

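In cultured mouse renal progenitors given vehicle, 217 of 2854 cells (7.60%) were poor in the nuclear RNAs Malat1 and Neat1. They were chosen as cells with Malat1 under 0.25% of the cell's UMIs and at most 2 UMIs of Neat1, where a UMI (unique molecular identifier) marks 1 captured RNA molecule. The other 2637 vehicle cells served for comparison, and the whole series held 5135 cells. Malat1 and Neat1 are therefore low in the chosen cells by construction, and their levels are a description. The question asked of these cells was whether they look like fragments without a nucleus or like damaged cells, by their other nuclear RNAs, mitochondrial share, actin genes and depth.

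The study compared 1 droplet library of cells given 0.2 µM panobinostat, a histone deacetylase inhibitor, with 1 library of cells given DMSO vehicle, each for 48 h after 16 h of starvation. All cells came from C57Bl/6 mice of 9 weeks that carried Pax2.rtTA, an activator made under the Pax2 promoter, with TetO.Cre, which it switches on, and the R26.mT/mG reporter. GFP therefore marks cells of the Pax2 lineage whether or not they still express Pax2. They had grown out of glomeruli of the kidney cortex for 5 days in culture and were sorted for GFP before treatment. The labels give 2 mice without tying them to libraries, so each treatment is 1 sample, cells are not replicates, and no test between groups of cells was run. The vehicle library held 90754967 UMIs and the panobinostat library 104188927, and 0 barcodes were shared between them. Intervals below are 95% intervals for counting error only. Every deposited cell had 1798 genes or more, and none exceeded 9.98% mitochondrial UMIs. Barcodes beyond those limits, where fragments or damaged cells could lie, were not analysed here.

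Malat1 is a long noncoding RNA kept in nuclear speckles, and Neat1 is the scaffold of nuclear paraspeckles. Xist coats the inactive X chromosome, and Kcnq1ot1 stays at its imprinted locus, so these RNAs also reside in the nucleus. Most messenger RNA in a cell is cytoplasmic, and mitochondrially encoded transcripts stay inside mitochondria, so the 3 kinds of RNA report on separate compartments. The library chemistry primes on runs of A, either a poly(A) tail or a run inside the transcript.

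Stretches of 4 nuclear transcripts are shown because they hold the features from which such RNAs can be captured, written 5′ to 3′ as DNA letters from GENCODE M21 (GRCm38, all on the minus strand). Capitals mark the longest run of A in Malat1 and Kcnq1ot1, and the polyadenylation signal AATAAA in the last 60 bases of Neat1 and Xist. Mature Malat1 has no poly(A) tail, and its A-rich tract folds into a triple helix at the 3′ end.
Malat1: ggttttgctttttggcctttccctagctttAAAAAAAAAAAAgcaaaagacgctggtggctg
Neat1: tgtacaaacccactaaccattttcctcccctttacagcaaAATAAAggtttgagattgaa
Xist: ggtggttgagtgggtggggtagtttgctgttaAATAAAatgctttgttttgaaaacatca
Kcnq1ot1: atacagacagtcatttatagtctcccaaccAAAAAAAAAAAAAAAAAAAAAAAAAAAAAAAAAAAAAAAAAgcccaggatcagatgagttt

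The Malat1 run counts 12 A and ends 298 nt before the end of the 6983 nt annotated transcript. The Kcnq1ot1 run counts 41 A and lies inside a 93092 nt unspliced transcript, and where the reads of either gene began was not analysed here. Malat1 lies at chr19:5795690-5802672 and Neat1 at chr19:5824708-5845478, each annotated with 1 exon. Xist lies at chrX:103460366-103483254, with 7 exons in its longest transcript, and Kcnq1ot1 at chr7:143203458-143296549, with 1 exon and antisense to Kcnq1. Strand in the counting was not stated in the sources used here. Whether the counting kept apart reads of Kcnq1ot1 and Kcnq1, or of Xist and its antisense partner Tsix, was not checked.

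The chosen cells were not 1 uniform group. In the cells as deposited, Malat1 made up between 0% and 0.247% of UMIs (median 0.0861%), against 0.0295% to 9.10% (median 0.554%) in the other vehicle cells, some of which were poor in Malat1 but held more than 2 Neat1 UMIs. Seen from these values, the 217 cells were divided into 77 with Malat1 under 0.02% (here the near-zero band), 40 with 0.02% to under 0.1% (the middle band) and 100 with 0.1% to under 0.25% (the upper band). The near-zero band held a median of 0 Malat1 UMIs and at most 4, and at most 1 Neat1 UMI. The upper band held a median of 40 Malat1 UMIs and 1 Neat1 UMI, against 166 and 10 in the other vehicle cells. At the threshold, the 5 chosen cells nearest to it had 0.240% to 0.247% Malat1, 4277 to 6331 genes and 3.57% to 6.20% mitochondrial UMIs. The 5 cells just outside it that also had at most 2 Neat1 UMIs had 0.251% to 0.257% Malat1, 4784 to 6950 genes and 4.40% to 5.40% mitochondrial UMIs, so the edge cuts through alike cells.

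**Figure D1:**
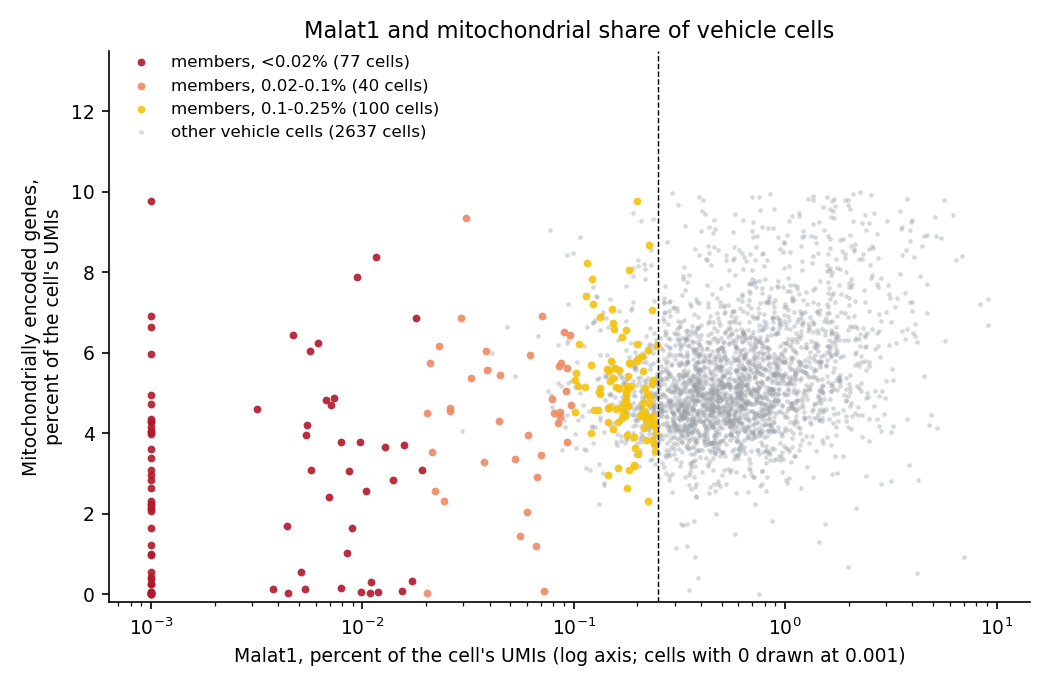
Each point is a vehicle cell: the x axis gives Malat1 as a percent of the cell's UMIs (log axis, with cells at 0 drawn at 0.001) and the y axis the percent of UMIs from mitochondrially encoded genes. The dashed line marks 0.25%, and grey points to its left held more than 2 Neat1 UMIs. Of the 77 cells in the near-zero band, 21 lay under 0.5% on the y axis, against 3 of the 2637 other cells.

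Depth differed along the bands, but the rule bears on it: a limit of 2 Neat1 UMIs takes in shallow cells more readily, so a lower total than in the other cells is in part fixed by the choice. Median totals were 14673 UMIs in the near-zero band, 19833.5 in the middle band, 22726.5 in the upper band and 28581 in the other vehicle cells. The lowest total among the chosen cells was 8406 UMIs and among the others 8327. Cells that met only the Neat1 limit had a median of 24687 UMIs, cells that met only the Malat1 limit 31907, and vehicle cells that met neither 29027. Genes per cell had medians of 2747, 4523, 5047 and 5584 in the same 4 groups.

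To set depth aside, each cell was thinned to 9362 UMIs, the 5th percentile of the chosen cells' totals, which left 206 chosen cells (69, 40 and 97 by band) and 2630 others; 11 chosen cells and 7 others were too shallow. At that one depth the near-zero band still held fewer genes, with a median of 2329 (range 1542 to 3140), against 2997.5 in the middle band, 3154 in the upper band and 3180.5 (range 2256 to 3878) in the other cells. The 50 most abundant genes of a cell took a median of 32.5% of its UMIs in the near-zero band, 25.1% in the middle band and 23.7% in the upper band, against 24.1% in the other cells. Fewer genes and a larger share for the leading genes were thus features of the near-zero band beyond depth. The upper band lay within the spread of the other cells on both measures.

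**Figure D2:**
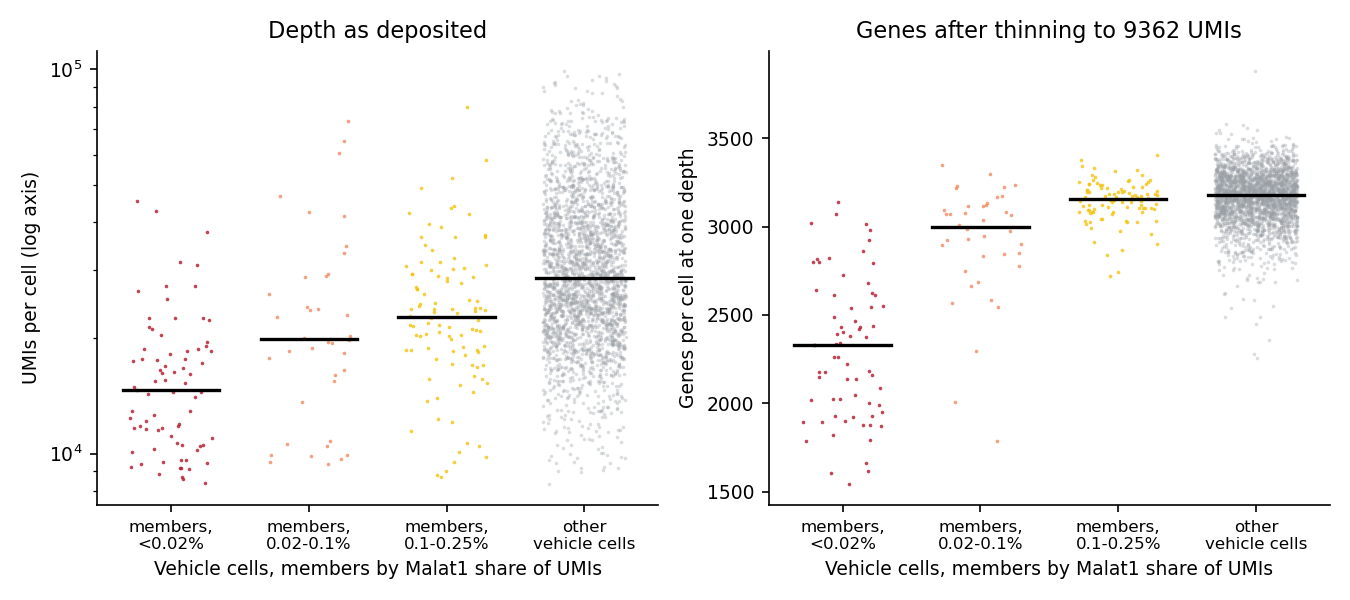
UMIs per vehicle cell as deposited (left, log axis) and genes per cell after thinning to 9362 UMIs (right), with points for cells and lines for medians. Near-zero cells had a median of 14673 UMIs and, at one depth, 2329 genes, against 28581 UMIs and 3180.5 genes in the other vehicle cells.

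The mitochondrial share was lower, not higher, where Malat1 was lowest. Medians were 2.65% in the near-zero band (range 0.00606% to 9.77%), 4.54% in the middle band and 4.98% in the upper band, against 5.14% (range 0.0155% to 9.98%) in the other vehicle cells. Of all chosen cells, 23 of 217 (10.6%, exact binomial interval 6.84% to 15.5%) had under 0.5% mitochondrial UMIs, against 3 of 2637 other cells (0.114%, 0.0235% to 0.332%). In the near-zero band the count was 21 of 77 (27.3%, 17.7% to 38.6%). At the other end, the deposited limit of 9.98% truncates any excess of mitochondrial RNA.

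Among the mitochondrially encoded genes, which encode respiratory chain subunits, 10 of 13 were lower in the near-zero band than in the other cells and 0 were higher, and their median log2 ratio was -0.88. Here and below a gene counts as higher or lower when its CPM (UMIs summed over the thinned cells and scaled to 1000000) differed at least 1.5-fold, among genes whose 2 CPM values averaged at least 20. Against this stand 446 of 5235 genes (8.52%) higher and 2334 (44.6%) lower over all genes in the near-zero band, where the median log2 ratio was -0.44. The complex IV gene mt-Co1 stood at 5754 CPM in the near-zero band and 9405 CPM in the other cells (log2 ratio -0.71). The complex I gene mt-Nd1 stood at 1424 CPM and 3846 CPM (log2 ratio -1.43). Nuclear genes for the same respiratory chain did not share that direction, since 5 of 20 were higher and 0 were lower (median log2 ratio 0.44). Without the cells under 0.5% mitochondrial UMIs, 5 of 13 mitochondrial genes in the near-zero band were lower, with a median of -0.49, beside 44.3% of all genes.

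Nuclear RNAs that played no part in the choice were lower as well. Of 34 nuclear noncoding RNAs listed beside Malat1 and Neat1, 19 had a row in the matrix and 4 passed the floor over all chosen cells, of which 3 were lower and 0 higher. Over all genes in that comparison, 55 of 5752 (0.956%) were higher and 881 (15.3%) lower. Xist stood at 141 CPM in the chosen cells and 327 CPM in the other vehicle cells, a log2 ratio of -1.21 (-1.39 to -1.04). Kcnq1ot1 stood at 46.1 and 123 CPM (log2 ratio -1.42, -1.74 to -1.12), and Gm26917, an annotated long noncoding RNA, at 51.9 and 111 CPM (log2 ratio -1.10).

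These differences followed the bands. Xist stood at 18.6 CPM in the near-zero band, 88.1 CPM in the middle band and 250.0 CPM in the upper band, against 327 CPM in the other cells, and its log2 ratios were -4.14 (-5.09 to -3.33), -1.89 and -0.39. At one depth, Xist gave a UMI in 5 of 69 near-zero cells, 15 of 40 middle cells and 81 of 97 upper cells, against 2338 of 2630 other cells. Free RNA in droplets can place a UMI in any cell, and no cell type lacking Xist was measured here as a background. Kcnq1ot1 stood at 9.29, 48.1 and 71.6 CPM in the same order, against 123 CPM, and Gm26917 at 7.74, 34.7 and 90.3 CPM, against 111 CPM. Tug1, a noncoding RNA found in both nucleus and cytoplasm, passed the floor over all chosen cells without reaching 1.5-fold (21.8 and 26.6 CPM, log2 ratio -0.29). In the near-zero band Tug1 stood at 10.8 CPM and did not pass the floor (log2 ratio -1.30, -2.62 to -0.24). Meg3, an imprinted noncoding RNA, had 0 UMIs in the chosen cells, where 3 counts equal 1.56 CPM, and 0.284 CPM in the others, too low for a ratio.

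Not every noncoding RNA was low. Host genes of small nucleolar RNAs and related cytoplasmic noncoding RNAs had 5 past the floor in the near-zero band. Of these 2 were higher and 1 was lower (median log2 ratio 0.56), beside 8.52% and 44.6% of all genes. Epb41l4aos stood at 55.7 CPM in the near-zero band and 22.9 CPM in the other cells (log2 ratio 1.28). The lower one was 2900097C17Rik, at 10.8 and 46.6 CPM (log2 ratio -2.11). All annotated long noncoding RNAs without Malat1 and Neat1 summed to 2889 CPM in the near-zero band, 3474 CPM in the middle band and 3648 CPM in the upper band, against 4170 CPM in the other cells. The counts carry no split into intronic and exonic reads, so unspliced RNA was not measured directly.

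As a further look at nuclear RNA, messages of splicing factors and kinases that are known to keep introns and stay partly in the nucleus were counted. In the near-zero band 30 of 32 were lower and 0 were higher, beside 44.6% and 8.52% of all genes. Their median log2 ratio was -1.23 beside -0.44 for all genes. A median this low was not particular to messages that keep introns. Immediate early genes, treated below, had a median of -1.84 in that band. The 1033 protein-coding genes with the longest transcripts had -1.25, with 800 of them lower. Nktr, a cyclophilin-type protein with a long arginine-serine tail, stood at 20.1 CPM in the near-zero band, 58.7 CPM in the middle band and 111 CPM in the upper band, against 139 CPM in the other cells. In the upper band 1 of 32 was lower, with a median of 0.04. There the background was 177 of 6034 genes (2.93%) higher and 275 (4.56%) lower, with a median of 0.01.

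Actin and contractile genes were the other side of the pattern. Over all chosen cells 8 of 31 such genes past the floor were higher, 3 were lower, and the median log2 ratio was 0.43. Of all genes, 0.956% were higher and 15.3% lower, with a median of -0.15. The 4 leading genes were Cnn1 (calponin, an actin-binding protein of smooth muscle), Myl9 (a regulatory myosin light chain), Acta1 (skeletal muscle actin) and Acta2 (smooth muscle actin). Cnn1 stood at 130 CPM in the chosen cells and 21.9 CPM in the other vehicle cells, a log2 ratio of 2.57 (2.35 to 2.79). Myl9 stood at 144 and 27.3 CPM (2.40, 2.19 to 2.60), Acta1 at 1275 and 250 CPM (2.35, 2.28 to 2.42), and Acta2 at 1717 and 491 CPM (1.81, 1.75 to 1.86). Tagln (transgelin), Tpm2 (a tropomyosin) and Vim (vimentin, an intermediate filament protein) followed, with log2 ratios of 1.55, 1.32 and 1.13.

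The markers given with the rule for these cells, Acta1, Myl9 and Acta2, were high in the near-zero band and not in the upper one. Markers and bands were chosen with results of these same data known, so their levels are a description and not a check. Acta1 stood at 3129 CPM in the near-zero band, 689 CPM in the middle band and 197 CPM in the upper band, against 250 CPM in the other cells. Myl9 stood at 378, 53.4 and 14.3 CPM in that order, against 27.3 CPM, and Acta2 at 4170, 996 and 270 CPM, against 491 CPM. The upper band thus lay below the other cells in all 3 markers. Over the whole contractile list 0 of 30 genes were higher and 3 lower there, beside 2.93% and 4.56% of all genes. Acta1, Acta2 and Actc1 are close paralogs, so the split of reads among them is uncertain.

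Within the near-zero band the genes were uneven from cell to cell. Acta1 had a median of 4 UMIs per cell at one depth (quartiles 0 and 28, highest 192), against a median of 0 (highest 164) in the other cells, and the 5 highest near-zero cells held 42.8% of its UMIs in that band. Acta2 had a median of 9 UMIs (quartiles 1 and 54, highest 411), against 0 (highest 188). Tagln had a median of 8 UMIs (highest 268), against 0 (highest 247), so the ranges of the 2 groups overlapped. Other vehicle cells also held such genes: of the 142 cells in the top 5% for Acta2 and Tagln together, 23 were near-zero cells (33.3% of the band) and 115 were other vehicle cells (4.37% of them).

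General cytoskeletal genes moved less. Actb (cytoplasmic beta-actin) stood at 29326 CPM in the near-zero band, 20193 CPM in the middle band and 16490 CPM in the upper band, against 14755 CPM in the other cells, with log2 ratios of 0.99, 0.45 and 0.16. Of 33 contractile genes past the floor in the near-zero band, 21 were higher and 5 were lower (median log2 ratio 0.85). The shares of all genes there were 8.52% and 44.6%. The keratin Krt8, of epithelial cells, stood at 8369 CPM in the near-zero band and 4434 CPM in the other cells (log2 ratio 0.92). Actc1 (cardiac actin) gave 49 UMIs in 2 near-zero cells, 48 of them in 1 cell, and 0 UMIs in the 2630 other cells.

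**Figure D3:**
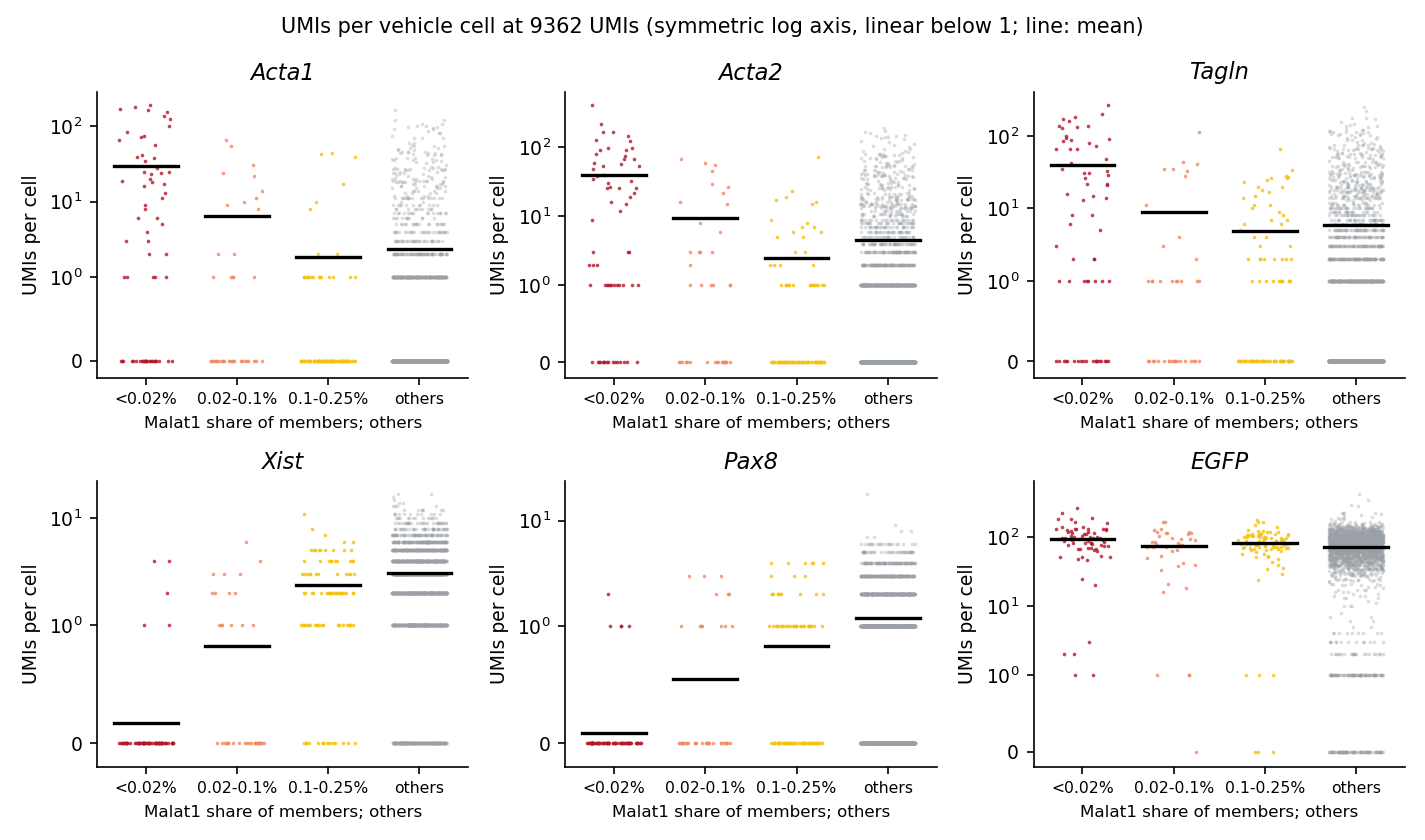
UMIs per vehicle cell after thinning to 9362 UMIs, on a symmetric log axis that is linear below 1, for Acta1, Acta2, Tagln, Xist, Pax8 and the EGFP reporter; points are cells, placed by band of Malat1 share with the other vehicle cells at the right, and lines are means. Acta1 averaged 3129 CPM in the near-zero band against 250 CPM in the other cells, Xist 18.6 CPM against 327 CPM.

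Dividing by the total ties these values together, because a few abundant genes raise the total. With TMM factors or DESeq2 size factors in place of the total, every log2 ratio over all chosen cells moved up by 0.20 or 0.23, and in the near-zero band by 0.58 or 0.68. Over all chosen cells 5.88% of the genes past the fold were higher with CPM, 42.6% with TMM (279 higher and 376 lower) and 54.7% with DESeq2. In the near-zero band those shares were 16.0%, 58.2% and 64.3%. The median of all genes therefore changed sign with the scaling, and list medians are read against it. The contractile and ribosomal protein lists stayed above 0, and the mitochondrial, immediate early and splicing lists below 0, under all 3 scalings in both comparisons.

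Immediate early genes, whose messages are short-lived, were low as well. Of 13 immediate early genes past the floor in the near-zero band, 12 were lower and 0 were higher, and the median log2 ratio was -1.84. Egr1, a transcription factor induced within minutes by growth signals, stood at 9.29 CPM in the near-zero band, 50.7 CPM in the middle band and 66.1 CPM in the upper band, against 89.2 CPM in the other cells. Dusp1, a phosphatase that turns off MAP kinases, stood at 29.4, 64.1 and 84.8 CPM, against 170 CPM. Of 13 genes past the floor in a list of Yap targets with the transcription factor gene Srf, 11 were lower and 0 higher. Contractile genes such as Acta2, Tagln and Cnn1, known targets of Srf, are counted in the contractile list and not in this one.

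Listed secreted and matrix genes were also mostly low. Of 19 secreted and matrix genes past the floor in the near-zero band, 15 were lower and 1 was higher, and the median log2 ratio was -1.62. Spp1 (osteopontin, a secreted matrix protein) stood at 327 CPM in the near-zero band and 2037 CPM in the other cells (log2 ratio -2.64), and Fst (follistatin, a secreted activin antagonist) at 91.3 and 1115 CPM (-3.61); Fst, too, was picked with its values in view. Genes of the unfolded protein response were lower in 8 of 13 cases and higher in 3. Xbp1, its transcription factor, stood at 9.29 and 72.2 CPM (-2.96), while Atf5, a stress transcription factor, stood at 170 and 37.1 CPM (2.20).

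By CPM, genes in lists of damage went both ways, and the medians of both lists lay above that of all genes. Of 11 heat shock genes past the floor in the near-zero band, 1 was higher and 3 were lower, around a median log2 ratio of -0.09. Of all genes there, 8.52% were higher and 44.6% lower, around a median of -0.44. Hspb1, a small heat shock protein that binds actin, stood at 2245 CPM and 1140 CPM (log2 ratio 0.98). Of 17 p53 and cell death genes, 2 were higher and 6 lower, around a median of -0.19. Pmaip1 (Noxa, a death-promoting partner of Mcl1) stood at 195 CPM in the near-zero band, 126 CPM in the middle band and 54.0 CPM in the upper band, against 78.5 CPM. Mdm2, which degrades p53, stood at 82.0 CPM in the near-zero band and 266 CPM in the other cells. Cdkn1a, the p53 target p21, stood at 477 and 505 CPM (log2 ratio -0.08), with 65.3% of its near-zero UMIs in 5 cells.

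Ribosomal protein messages, short, stable and cytoplasmic, were the opposite case. Their median log2 ratio was 0.39 in the near-zero band, 0.21 in the middle band and 0.08 in the upper band, with 8, 0 and 0 of 80 genes past the fold upwards and 0 downwards in each. Over all genes of the near-zero band, 8.52% were higher and 44.6% lower, so the 8 of 80 lay near the share of all genes. In the middle band 269 of 5826 genes (4.62%) were higher and 975 (16.7%) lower. They made up a median of 21.1% of a cell's UMIs in the near-zero band, 17.2% in the middle band and 16.9% in the upper band, against 16.2% in the other cells. Genes for assembling ribosomes in the nucleolus were lower in 7 of 14 cases in the near-zero band, with a median of -0.60. That is near the 44.6% lower and the median of -0.44 over all genes there.

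**Figure D4:**
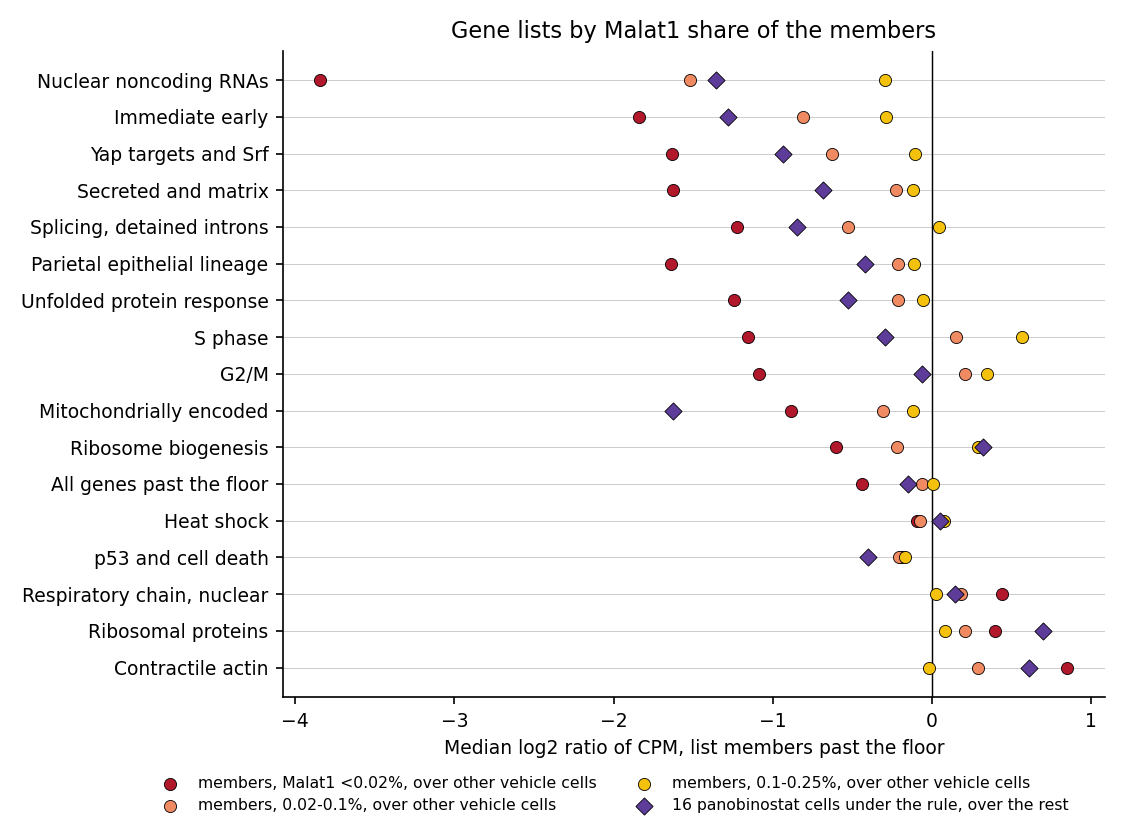
Median log2 ratio of CPM over the genes of each list that passed the floor, for the 3 bands of chosen cells over the other vehicle cells (circles) and for the 16 panobinostat cells under the same rule over the rest of their library (diamonds). The near-zero band runs between -3.84 for nuclear noncoding RNAs and 0.85 for contractile actin genes, while the upper band runs between -0.30 and 0.56. Few nuclear noncoding RNAs passed the floor, and -3.84 is the value of Gm26917, from 5 UMIs.

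The difference was larger for longer genes. In the near-zero band the median log2 ratio of protein-coding genes fell with the length of their longest annotated transcript, through 0.16, -0.10, -0.39, -0.65 and -1.25 in quintiles with median lengths of 1232, 2143, 3111.5, 4265.5 and 6745 nt. In the last of these, 800 of 1033 genes were lower and 17 higher. By the span of the gene on the chromosome, introns included, the quintile medians were 0.03, -0.20, -0.38, -0.65 and -1.10. For a fixed set of genes, another scaling moves all quintiles by one value and leaves the differences between them as they are. The genes past the floor number 5235 with CPM, 5089 with TMM and 5079 with DESeq2, and the quintiles were not recomputed. In the upper band the outer quintiles by transcript length had medians of 0.04 and -0.11.

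The 2 lengths were then crossed at their medians in the near-zero band. Short genes with short transcripts had a median log2 ratio of -0.01 (1920 genes) and long genes with long transcripts -0.98 (1920 genes). Short genes with long transcripts had -0.53 and long genes with short transcripts -0.11 (664 genes each). At a given class of span the longer transcripts were lower, and at a given class of transcript the longer spans were lower. Ahnak, a very long coding message (picked with its values in view), stood at 136 CPM in the near-zero band and 1047 CPM in the other cells (log2 ratio -2.94), and Trio, a large signalling protein, at 6.19 and 74.3 CPM (-3.59).

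**Figure D5:**
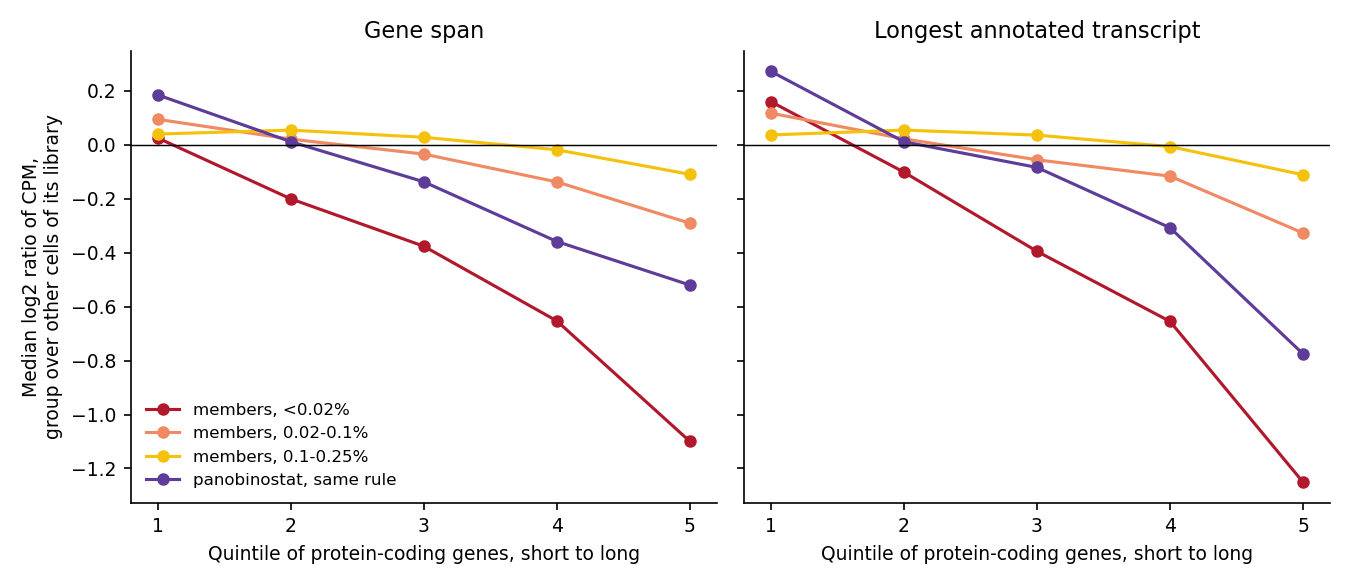
Median log2 ratio of CPM by quintile of gene span (left) and of the longest annotated transcript (right), short to long, for the 3 bands of chosen cells over the other vehicle cells and for the panobinostat cells under the same rule over the rest of their library. By transcript length the near-zero band runs between 0.16 and -1.25 and the upper band between 0.04 and -0.11.

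In the upper band, cell cycle genes were among those higher. Of its 35 S phase genes that passed the floor, 16 were higher and 0 were lower (median log2 ratio 0.56), and 10 of 49 G2/M genes were higher and 0 lower (median 0.34), beside 2.93% of all genes higher. Rpa2, a subunit of the protein that coats single-stranded DNA, stood at 61.7 CPM in the upper band and 29.1 CPM in the other cells, and Cdc20, an activator of the anaphase-promoting complex, at 128 and 74.7 CPM. The near-zero band went the other way, with 23 of 26 S phase and 27 of 37 G2/M genes lower, beside 44.6% of all genes there. Top2a, a topoisomerase of dividing cells, stood at 27.9 CPM in the near-zero band, 158 CPM in the middle band and 297 CPM in the upper band, against 242 CPM. Over all chosen cells 0 of 31 S phase genes passed the fold (median 0.10), and of 46 G2/M genes 2 were higher and 3 lower. In that comparison 0.956% of all genes were higher and 15.3% lower.

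Phase calls from the same lists gave 60.9% of near-zero cells (48.4% to 72.4%), 20.0% of middle cells and 11.3% of upper cells (5.80% to 19.4%) as G1, against 41.9% of the other cells. S phase took 12 of 69 near-zero cells, 10 of 40 middle cells and 41 of 97 upper cells, against 558 of 2630 other cells. G1 is the call given when neither list is high, so a cell with low values of both lists falls there, and how free RNA enters these calls was not tested.

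Cells that met only 1 condition of the rule were compared as well, with vehicle cells that met neither in place of all the others. The 308 vehicle cells with Malat1 under 0.25% but more than 2 Neat1 UMIs were set against the 2019 thinned cells poor in neither. There 34 of 6055 genes (0.562%) were higher and 75 (1.24%) lower. Acta1 stood at 209 and 256 CPM, and Xist at 253 and 336 CPM. The 303 thinned cells with at most 2 Neat1 UMIs and Malat1 at 0.25% or more had 94 of 6130 genes (1.53%) higher and 79 (1.29%) lower, and 21 of 49 G2/M genes were among those higher. Acta1 stood at 252 and 256 CPM there, and Xist at 339 and 336 CPM.

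When vehicle cells were clustered at one depth with Malat1 and Neat1 left out, 56 of 69 near-zero cells (81.2%) fell in 1 cluster of 82 cells, which held 10 middle cells, 1 upper cell and 0.570% of the other cells. Its leading genes were Acta1, Cnn1, Myl9, Acta2 and Tagln, and it was given no cell type name. Of the 97 upper cells, 22, 37 and 25 fell in 3 larger clusters that held 22.9%, 17.2% and 14.8% of the other cells. Clusters are a description of the same cells and test nothing.

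The identity of the cells was checked by marker lists. The EGFP reporter was picked with its values in view and stood at 10140 CPM in the near-zero band and 7751 CPM in the other cells, and had at least 1 UMI in 69 of 69 and 2529 of 2630 cells. Krt8 and Krt18 were high in both groups. Pax8, a kidney lineage transcription factor, stood at 9.29 CPM in the near-zero band, 58.7 CPM in the middle band and 89.2 CPM in the upper band, against 129 CPM. Pax2 stood at 17.6 CPM in all chosen cells and 42.3 CPM in the others. Of 18 parietal epithelial lineage genes past the floor, 12 were lower and 2 higher in the near-zero band, beside 44.6% and 8.52% of all genes.

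Defining markers of other cell types were at or near 0. Summed CPM in the near-zero band and in the other cells was 6.19 and 27.2 for 8 endothelial genes, 0 and 6.25 for 5 leukocyte genes, 3.10 and 15.4 for 8 mesangial and fibroblast genes, and 3.10 and 11.3 for 7 tubule genes. None of these 4 lists had a gene past the floor there, and the pericyte markers Pdgfrb and Des had 0 UMIs in the chosen cells. The podocyte markers Nphs1 and Wt1 also had 0 UMIs in the chosen cells. Of 4 podocyte list genes past the floor in the near-zero band, 1 was higher and 3 lower, beside 8.52% and 44.6% of all genes. Hba-a1 and Pf4 (haemoglobin and platelet factor genes) had 0 UMIs in the chosen cells, while the platelet chemokine gene Ppbp stood at 788 CPM in the near-zero band and 295 CPM in the other cells. Emcn, an endothelial gene, gave 49 UMIs in the chosen cells, all in 1 cell of the upper band.

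The panobinostat library did not enter the rule that chose the vehicle cells. Under the same rule 16 of its 2281 cells (0.701%) were poor in both RNAs, and Malat1 was far higher in the rest of that library, at a median of 4.05% of UMIs against 0.554% in the other vehicle cells, so the threshold cuts the 2 libraries at different points. With 1 library each, treatment and library cannot be told apart. The 16 cells had a median of 32570.5 UMIs, against 42448 in the 2265 other panobinostat cells, and at one depth 2704.5 genes against 3135. Of the 16, 6 had under 0.5% mitochondrial UMIs (37.5%, 15.2% to 64.6%), against 1 of 2265.

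In those 16 cells 909 of 5453 genes (16.7%) were higher and 1777 (32.6%) lower than in the rest of their library. Acta1 stood at 1001 CPM and 23.7 CPM (log2 ratio 5.40, 5.13 to 5.67), Acta2 at 381 and 7.07 CPM (5.75), Tagln at 975 and 38.3 CPM (4.67) and Cnn1 at 113 and 10.7 CPM (3.41). These counts came from few cells, since the 5 highest held 92.0% of the Acta1 UMIs and 95.9% of those of Tagln. Myl9 had 3 UMIs, a log2 ratio of 2.46 with an interval of 0.15 to 4.06. Xist stood at 33.4 CPM from 5 UMIs, against 369 CPM (log2 ratio -3.47, -5.09 to -2.24). Meg3 had 1 UMI in the 16 cells, against 140 CPM in the rest (log2 ratio -4.39, -9.70 to -1.91).

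Scaled to CPM, the median of each plotted list took the same side of 0 as in the near-zero vehicle band, except for heat shock and ribosome biogenesis. Of 13 mitochondrial genes 13 were lower (median -1.63), of 16 immediate early genes 16 were lower, and of 30 splicing genes 22 were lower. Such calls can rest on few UMIs, since 3 UMIs equal 20.0 CPM there. The splicing genes Ccnl2 and Ogt were called lower from 3 UMIs each, with intervals of -2.89 to 0.94 and -3.45 to 0.39. Those of Nktr and Rsrp1 lay below 0. Over all genes, 480 were higher and 714 lower when the interval also had to exclude equality. Contractile genes had 16 of 30 higher and 6 lower, and 58 of 80 ribosomal protein genes were higher (median 0.70), a larger share than the 8 of 80 in the near-zero band, a difference that was not tested. Ribosome biogenesis genes had a median of 0.32 and heat shock genes of 0.05. By transcript length the quintile medians were 0.27, 0.01, -0.08, -0.31 and -0.78.

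The chosen cells were also divided by their mitochondrial share. The 19 thinned chosen cells under 0.5% mitochondrial UMIs had 821 of 5256 genes (15.6%) higher and 2227 (42.4%) lower, with Acta1 at 4368 CPM and Xist, Kcnq1ot1 and Neat1 at 0 UMIs, where 3 counts equal 16.9 CPM. The 52 thinned near-zero cells with at least 0.5% had 8.24% of genes higher and 44.3% lower, Acta1 at 2603 CPM, Xist at 24.6 CPM and Pax8 at 6.16 CPM. In those cells the mitochondrial genes lay near all genes (median log2 ratios -0.49 and -0.43). Whether the low and high features of the near-zero band meet in the same cells was not tested, and the counts do not show whether a nucleus was present.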

How the data were processed

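The deposited matrix holds raw UMI counts per gene and cell for 19394 genes, with no normalization by the authors. The submitters' processing notes name Cell Ranger 3.0.1 and the build mm10; strand and annotation of the counting were not given in the sources used here. Cells were assigned to libraries by the mark at the end of each barcode, which matches the treatment in the labels. The cells were filtered before deposit, since the lowest gene number is 1798 and each gene occurs in at least 3 cells.

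The members, lists and bands were chosen with earlier results of these data known. Cells were brought to 9362 UMIs each by random draws without replacement, and UMIs were summed per group and scaled to CPM. The log2 ratio is chosen cells over other cells of the same library. A gene was called at 1.5-fold with a mean of the 2 CPM values of at least 20. Ratios have exact conditional binomial intervals, CPM exact Poisson intervals and shares exact Clopper-Pearson intervals; they cover counting error only and leave out variation between cells, cultures, mice and libraries. With 1 library per treatment no p-value was computed.

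Among genes with a mean of at least 50 CPM, those named are the top 12 and bottom 12 by ratio, not counting genes without a proper name or of the mitochondrial or ribosomal protein groups, with up to 4 per list and 18 genes fixed by name. Not all of them are described. Genes named outside this rule, markers of other cell types and examples of a band among them, were chosen after their values were seen. Gene and transcript lengths came from GENCODE M21 by unique symbol (98.5% of symbols), for 99.2% of the genes past the floor.

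Scrublet called 0 of the chosen cells and 1 of the other vehicle cells doublets, a share too low to show that the caller worked, so doublets were left in. Marked as in the top 5% of scores were 114 of 2854 vehicle cells, less than a full 5%, and 0 of them were chosen cells. Clusters used 2000 variable genes, 30 principal components, 15 neighbours and resolution 0.5. The comparison of chosen with other vehicle cells was tested on counts simulated from the vehicle library's own means, without variation between cells. It called 50 of 50 genes set at 2-fold and 1 of 50 set at 1.2-fold, and 18 of 5843 genes with no change were called too. The panobinostat comparison was not simulated. Tools were Python 3.11.15, numpy 2.4.6, scipy 1.17.1, scanpy 1.11.5, leidenalg 0.10.2, R 4.3.3, edgeR 4.0.16 (TMM factors only) and DESeq2 1.42.0 (size factors only).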

Additional observations from a re-analysis of the deposited data

How the results depend on the processing

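Over all chosen cells, 55 genes were higher and 881 lower. The higher count was 23 without thinning, 279 with TMM factors, 355 with DESeq2 size factors, 20 with a floor of 100 CPM, 1116 with no floor and 13 at 2-fold. It was 275 with Malat1 under 0.1%, 34 with Malat1 under 0.5%, 19 with no Neat1 condition, 27 with that condition after thinning, 156 against the other cells at or above their median Malat1 share and 322 in cells called G1. The lower count was 409 without thinning, 376 with TMM, 294 with DESeq2, 1543 with a floor of 10 CPM, 101 with a floor of 100 CPM, 3380 with no floor, 121 at 2-fold and 506 when thinned to the 25th percentile. It was 1967 with Malat1 under 0.1%, 246 with Malat1 under 0.5%, 142 with no Neat1 condition, 264 with that condition after thinning and 2120 in G1. With Malat1 under 0.02%, an alternative chosen after seeing the data, the counts were 448 and 2327.

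The number of chosen cells was 117 with Malat1 under 0.1%, 405 under 0.5%, 525 with no Neat1 condition, 367 with that condition after thinning and 77 under 0.02%. The nuclear noncoding list, which rests on few genes, had a median of -1.16 over all chosen cells. It moved to -2.51 with Malat1 under 0.1% and -3.82 under 0.02%. Looser rules made it smaller in size: -0.57 with Malat1 under 0.5%, -0.47 with no Neat1 condition and -0.64 with that condition after thinning. With a floor of 10 CPM it was -0.59. The contractile list, at 0.43 over all chosen cells, moved to 0.63 with TMM and 0.67 with DESeq2. It was 0.65 with Malat1 under 0.1%, 0.73 in G1 and 0.84 under 0.02%. Looser rules lowered it to 0.27 with Malat1 under 0.5%, 0.26 with no Neat1 condition and 0.25 with that condition after thinning. The median mitochondrial share of chosen minus other cells was -0.71 percentage points. It was -1.60 percentage points with Malat1 under 0.1%, -0.45 with no Neat1 condition, -0.45 with that condition after thinning, -1.06 against cells at or above the median Malat1 share, -2.74 in G1 and -2.48 under 0.02%.

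Reversals were few. The median of all genes was 0.054 with TMM, 0.089 with DESeq2 and 0.063 with a floor of 100 CPM. Aurka was at 0.19 and Cenpf at 0.22 with Malat1 under 0.5%, and in G1 Cdc20 was at -0.24 and Cenpa at -0.057, with Cenpa at -0.43 under 0.02%. In the panobinostat library the median of all genes was 0.21 with a floor of 100 CPM, and the G2/M list 0.0044 with DESeq2. There the higher count was 559 without thinning, 351 with a floor of 100 CPM, 2223 with no floor, 278 at 2-fold and 480 with an interval excluding equality; the lower count was 2692 with a floor of 10 CPM, 275 with one of 100 CPM, 2868 with no floor, 1178 at 2-fold and 714 with such an interval. The cause of these shifts was not tested, beyond the fewer or more genes and cells that each choice admits.

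Leaving out chosen cells under 0.5% mitochondrial UMIs, or cells in the top 5% of doublet scores, both chosen after seeing the data, moved neither count by over 1.5 times. No paired analysis was possible because each treatment has 1 library and the result comes from no test. Depth limits the near-zero band, where 3 UMIs equal 4.64 CPM, and the 16 panobinostat cells, where 3 UMIs equal 20.0 CPM.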
